A study of Mus musculus with 12 samples.

Results

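The lysosome is the acidic compartment in which cells break down proteins, sugars and lipids. The genes described here are 41 of the 38349 genes in the deposited table: 17 encode the proton pump that acidifies the lysosome, 14 encode cathepsins and legumain, 5 encode other hydrolases, 2 encode lysosome membrane proteins and 3 encode transcription factors of the MiT/TFE family. They were taken by gene symbol from a list that was drawn up with earlier results of these data known; each symbol occurred on 1 row of the table. All 41 passed the filter on low counts and entered the test, which covered 22915 genes. Their read counts ran from 325 to 121890 per library.

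The samples were lungs of wild-type mice in 4 groups of 3 libraries, measured by poly(A)-selected RNA sequencing. The Control group is the normal group. The ALI group is the model of acute lung injury, which the series title attributes to hypoxia and LPS (lipopolysaccharide, a component of bacterial membranes that triggers inflammation). The MSC and tpMSC groups are described as treated groups, with MSCs or tpMSCs as the agents named in the title. The labels do not give what tpMSC stands for, the dose, the route and the time of sampling, the strain, age and sex of the mice, and whether the treated mice received the same hypoxia and LPS. Nor do they say whether the 3 libraries of a group are 3 animals; if they are not, the p-values below reflect technical spread only.

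The vacuolar ATPase pumps protons into lysosomes with the energy of ATP. Its V1 sector, encoded by the Atp6v1 genes, hydrolyses ATP in the cytosol, and its V0 sector, encoded by the Atp6v0 genes, carries the protons through the membrane. Most cathepsins are proteases that work best at the low pH the pump creates; macrophages, which engulf particles and dying cells, are rich in them. TFEB and its relatives TFEC and MITF are basic helix-loop-helix factors that bind the sequence CACGTG, and TFEB acts through such sites on many lysosomal genes.

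Library totals ran from 53083002 to 70209229 counts, and the 41 genes took 0.638% to 1.07% of them. Sftpc, the surfactant protein that marks alveolar type 2 cells of the lung, stood at 3412 to 11439 FPKM (fragments per kilobase, scaled to library size) in every library, and the 6 lung epithelial markers summed to 11400 to 34800 FPKM. The 3 MSC libraries differed among themselves in the 14 alveolar macrophage markers, which summed to 501.4, 1041 and 219.5 FPKM in replicates 1, 2 and 3. Chil3 alone made up 172, 552 and 12 FPKM of these sums in the 3 MSC libraries. Results in which these libraries part are given library by library, and with replicate 2 or 3 left out where that changes the result. Because the RNA came from whole lung, fewer cells of a type and less RNA per cell cannot be told apart in any of the values that follow.

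Where the promoters of these genes hold the sequence that TFEB binds is shown first, since the transcription factors are among the genes described. RefSeq promoter windows (GRCm38.p6, 250 bases before to 50 after a start) were at hand for 31 of the 41 genes, as 39 windows, and were searched for CACGTG, a palindrome that reads the same on both strands. It was present in a window of 12 of the 31 genes (38.7%), against 8.09% of the 27025 genes in the promoter table. The longer TCACGTG, searched on both strands and always overlapping CACGTG, was present for 10 of 31 (32.3%), against 4.29% of all genes. By role, CACGTG was found for 4 of 11 pump genes, 5 of 10 cathepsin and legumain genes, 2 of 5 hydrolases, Lamp1 but not Lamp2, and none of the 3 MiT/TFE genes. These are matches of letters, and no binding was measured.

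The windows below show the densest case, that of a lysosome membrane protein, followed by a pump subunit, a pair of proteases that moved in opposite directions in ALI, and a pair of hydrolases. CACGTG is in capitals, and each is written 5′ to 3′ on the strand of its gene. Lamp1 (chr8:13159088-13159160, plus strand, between genes and ending at the base before the annotated start) holds 4 copies in 73 bases. The Ctsf (chr19:4855074-4855103, plus strand), Gaa (chr11:119267811-119267840, plus strand) and Glb1 (chr9:114401018-114401047, plus strand) stretches also lie outside annotated genes. Those of Atp6v1a (chr16:44139373-44139402, minus strand) and Lgmn (chr12:102439124-102439153, minus strand, from 1 of its 2 windows) lie inside the gene's own annotated span and outside its exons.
Lamp1: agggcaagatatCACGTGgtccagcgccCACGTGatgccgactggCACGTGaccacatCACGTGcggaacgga
Atp6v1a: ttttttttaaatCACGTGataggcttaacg
Lgmn: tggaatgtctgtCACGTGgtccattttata
Ctsf: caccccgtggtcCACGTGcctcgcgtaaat
Gaa: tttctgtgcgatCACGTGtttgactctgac
Glb1: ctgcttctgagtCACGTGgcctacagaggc

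In ALI lungs against Control lungs, 24 of the 41 genes rose and 2 fell. Called genes are those with a Benjamini-Hochberg adjusted p under 0.05 in the edgeR quasi-likelihood test, adjusted over all 22915 genes. In the same comparison 39.8% of all genes tested were called: 20.2% rose and 19.6% fell. The median log2 fold change of the 41 genes was 0.34, and that of all genes tested was -0.022. By role, 11 of the 17 pump genes rose and 1 fell, 10 of the 14 cathepsin and legumain genes rose and 1 fell, 2 of the 5 hydrolases rose, Lamp2 rose, and none of the 3 MiT/TFE genes was called. The cathepsin and legumain genes had the largest median log2 fold change of these roles, 0.95, against 0.31 for the pump genes and -0.02 for the hydrolases.

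**Figure D1:**
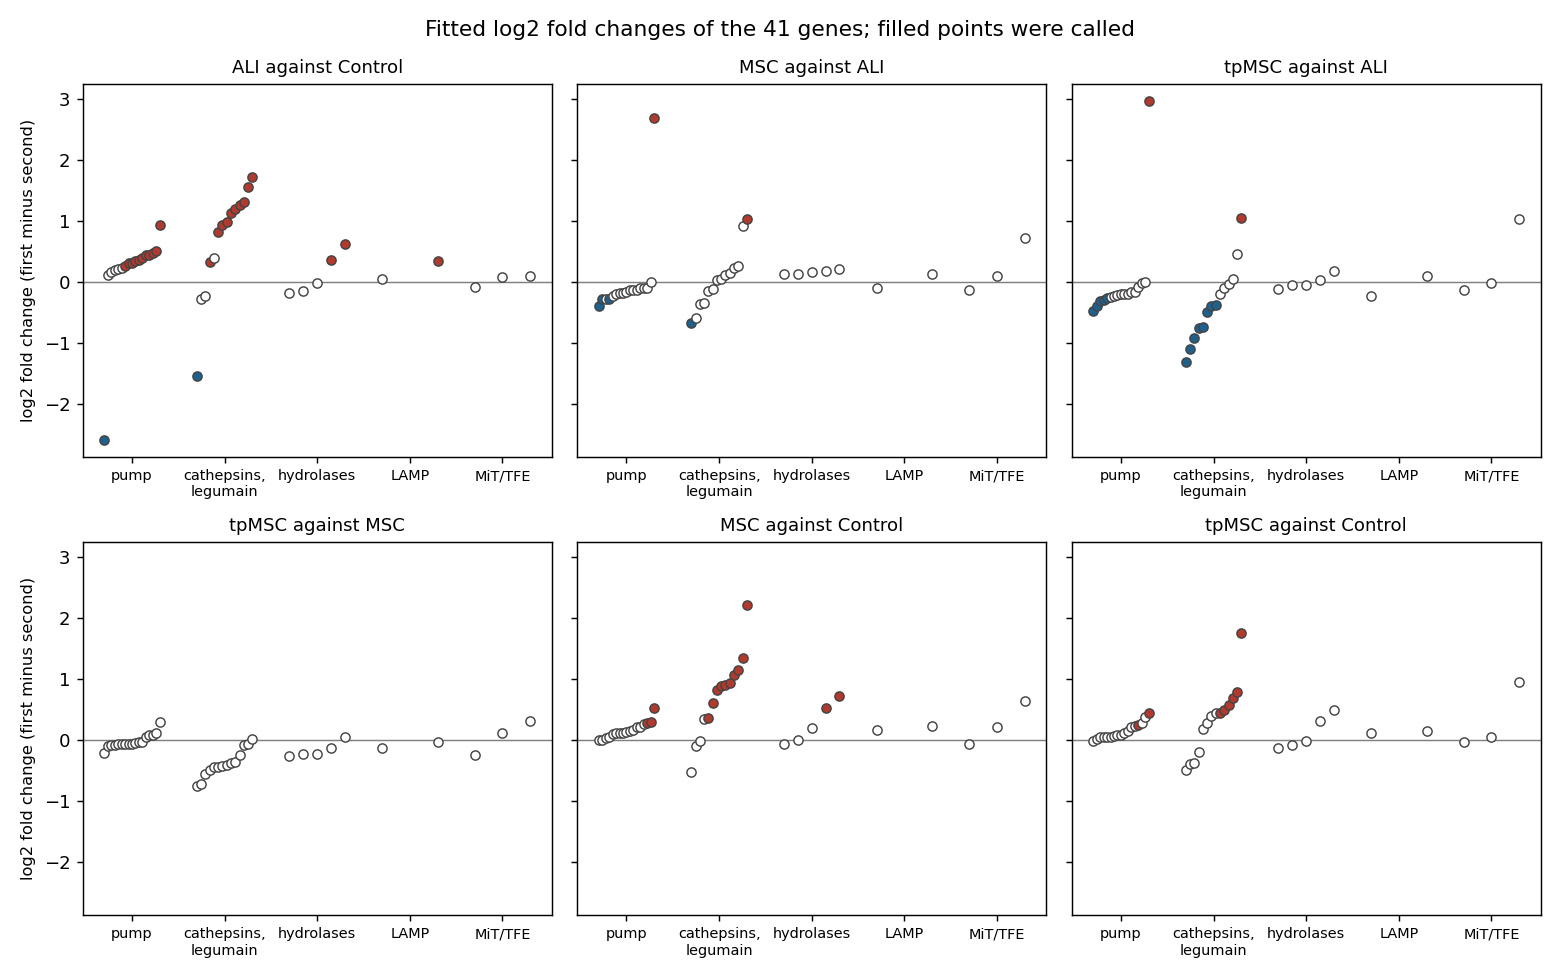
Fitted log2 fold changes (vertical axis, first group minus second) of the 41 genes in the 6 comparisons, sorted within each of the 5 roles along the horizontal axis. Each point is 1 gene and filled points were called (red rose, blue fell); in ALI against Control the pump genes lie close together between 0.11 and 0.93 apart from Atp6v0d2 at -2.59, while the cathepsins reach 1.72, and in tpMSC against MSC no point is filled.

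Treated lungs were also compared with ALI lungs. In MSC against ALI 2 of the 41 genes rose (Atp6v0d2 and Ctsf) and 4 fell (Atp6v0c, Atp6v0d1, Atp6v1d and Ctsc), where 10.2% of all genes tested were called, 5.03% higher and 5.21% lower. In tpMSC against ALI 2 rose (again Atp6v0d2 and Ctsf) and 13 fell, where 23.1% of all genes were called, 11.6% higher and 11.5% lower. The medians of the 41 genes were -0.11 and -0.2, and those of all genes 0.018 and 0.01. The count for MSC against ALI depended on single libraries: without MSC replicate 2 it was 14, of which 12 fell, and without ALI replicate 1 it was 2. The count for tpMSC against ALI ran from 9 without tpMSC replicate 2 to 21 without MSC replicate 2. The ALI libraries enter both ALI against Control and the treated groups against ALI, so these comparisons share samples.

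The direct comparison of the treatments, tpMSC against MSC, gave no call among the 41 genes. Only 0.0305% of all genes tested were called there, 0.0175% higher and 0.0131% lower. At an unadjusted p under 0.05 there were 12 of the 41 genes (29.3%), against 12.6% of all genes tested, and 9 of the 12 were cathepsins or legumain. The log2 fold changes of Ctsb, Ctsd and Ctss were -0.56 ± 0.12, -0.49 ± 0.11 and -0.76 ± 0.2, with edgeR adjusted p-values of 0.114, 0.133 and 0.167. DESeq2 called these 3 and no other of the 41 (7.32%), and 2.92% of all genes tested. The edgeR test called 4 without MSC replicate 1 (Ctsb, Ctsd, Ctsl and Ctss) and 2 without tpMSC replicate 3 (Ctsb and Ctsc). The median over the cathepsins and legumain was -0.42, over the pump genes -0.06 and over all genes tested -0.001.

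Against Control, MSC lungs had 15 of the 41 genes higher and none lower, where 18.7% of all genes tested were called, 10.7% higher and 8% lower. The 15 comprised 3 pump genes, 10 of the 14 cathepsin and legumain genes, Hexa and Gusb. In tpMSC against Control 8 were higher and none lower, where 15.9% of all genes were called, 9.1% higher and 6.79% lower. These were Atp6v0c and Atp6v0d1 of the pump and Ctsb, Ctsd, Ctsh, Ctsk, Ctsz and Lgmn. Both comparisons use the same Control libraries. The counts were 11 to 17 for MSC and 3 to 14 for tpMSC when single libraries were left out.

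The 11 of the 17 pump genes that rose in ALI came from both sectors, 5 were not called and Atp6v0d2 fell. Summed over the 17 genes, the level was 536.6, 535 and 545.9 FPKM in Control libraries and 644.9, 646.9 and 624.5 FPKM in ALI libraries, with no overlap. The V0 genes called higher were Atp6v0a1, Atp6v0a2, Atp6v0c and Atp6v0d1, and the V1 genes were Atp6v1a, Atp6v1b2, Atp6v1c1, Atp6v1d, Atp6v1g1 and Atp6v1h. Atp6ap2, the prorenin receptor and an accessory subunit, rose as well. Leaving out Atp6v0c, these rises ran from 1.19-fold for Atp6v1h to 1.43-fold for Atp6v1g1, the pump gene with the highest level. The call of Atp6v0a2 was lost without ALI replicate 3 (edgeR adjusted p = 0.0528) and that of Atp6v1b2 without Control replicate 2 or 3 or ALI replicate 2 (up to 0.0729). That of Atp6v1h was lost without Control replicate 1 or 3 or ALI replicate 2 and with limma on FPKM (up to 0.0721).

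Atp6v0c encodes the proteolipid whose copies form the rotating ring of the pump. It stood at 24.1, 24.3 and 24.3 FPKM in Control and 44.6, 42.1 and 45.9 FPKM in ALI libraries, a log2 fold change of 0.93 ± 0.12 (SE) with an edgeR adjusted p of 7.87e-05. Its reads may be divided with a pseudogene named as its copy, Atp6v0c-ps2, whose sequence was not compared. The copy held 65748 counts against 97482 for Atp6v0c and moved by 1.14 ± 0.14 in the same comparison (edgeR adjusted p = 7.75e-05). In FPKM the copy was the higher, at 108.5 against 24.24 in Control and 229.5 against 44.19 in ALI. The value of Atp6v0c, its rank among the pump genes and the pump sum are uncertain for that reason. The pump genes that were not called were Atp6v0b, Atp6v0e, Atp6v1e1, Atp6v1f and Atp6ap1, at log2 fold changes of 0.11 to 0.22.

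Atp6v0d2 was the only one of the 17 pump genes that fell in ALI; Atp6v1c2 and Atp6v0e2, pump subunits outside the 41, fell as well and are given with the further lists. It encodes an isoform of the d subunit that is abundant in osteoclasts and alveolar macrophages, whereas Atp6v0d1 encodes the widely expressed isoform. Its level was 21.6, 18 and 18.7 FPKM in Control libraries and 2.81, 3.27 and 3.2 FPKM in ALI libraries. The groups were far apart, and the log2 fold change was -2.59 ± 0.45 (SE; edgeR adjusted p = 0.000769).

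Atp6v0d1 moved the other way, from 40.2, 38.8 and 39 FPKM to 52.4, 48.6 and 52.5 FPKM (log2 fold change 0.44 ± 0.07, edgeR adjusted p = 0.000628). As a share of the summed FPKM of both d isoforms, Atp6v0d2 made up 31.7% to 35% in Control libraries and 5.09% to 6.3% in ALI libraries. It returned to 32.3% to 38.2% in tpMSC libraries. In MSC libraries it was 26.1%, 44.8% and 15.5%, so that 1 library lay above the Control range and 2 below it.

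In treated lungs Atp6v0d2 stood at 28.3, 23.7 and 22.2 FPKM with tpMSC and at 15.1, 39.2 and 7.25 FPKM with MSC. All tpMSC libraries lay above the Control libraries, by a margin that did not pass the test (log2 fold change 0.38 ± 0.42, edgeR adjusted p = 0.595). This value became a call in 1 of the 18 settings, with only the 6 libraries compared (edgeR adjusted p = 0.0343). Against ALI the gene rose by 2.97 ± 0.46 in tpMSC (edgeR adjusted p = 0.000909) and by 2.68 ± 0.45 in MSC (edgeR adjusted p = 0.00396), both on the log2 scale. The log2 fold change in MSC was 1.8 without MSC replicate 2 and 3.09 without MSC replicate 3, and it was called under each of the 18 settings. MSC against Control gave 0.09 ± 0.42 (edgeR adjusted p = 0.918), and -0.8 without MSC replicate 2.

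The alveolar macrophage markers moved in the same libraries. In ALI 1 of the 14 rose and 8 fell, in MSC against ALI 4 rose and none fell, and in tpMSC against ALI 9 rose and 1 fell. Their summed level was 576.4 to 637.6 FPKM in Control, 259.3 to 264.9 in ALI, 219.5 to 1041 in MSC and 646.3 to 899.7 in tpMSC libraries. Chil3 weighed heavily in these sums. It alone stood at 93.5 to 143 FPKM in Control, 24.5 to 33.9 in ALI, 12 to 552 in MSC and 242 to 402 in tpMSC libraries. None of the 14 was called in tpMSC against Control. None of the 14 was at 0 in any library, but Krt79 was at 0.01 to 0.05 FPKM in the ALI libraries and in MSC replicate 3. The part of these cells in the result for Atp6v0d2 was not tested.

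**Figure D2:**
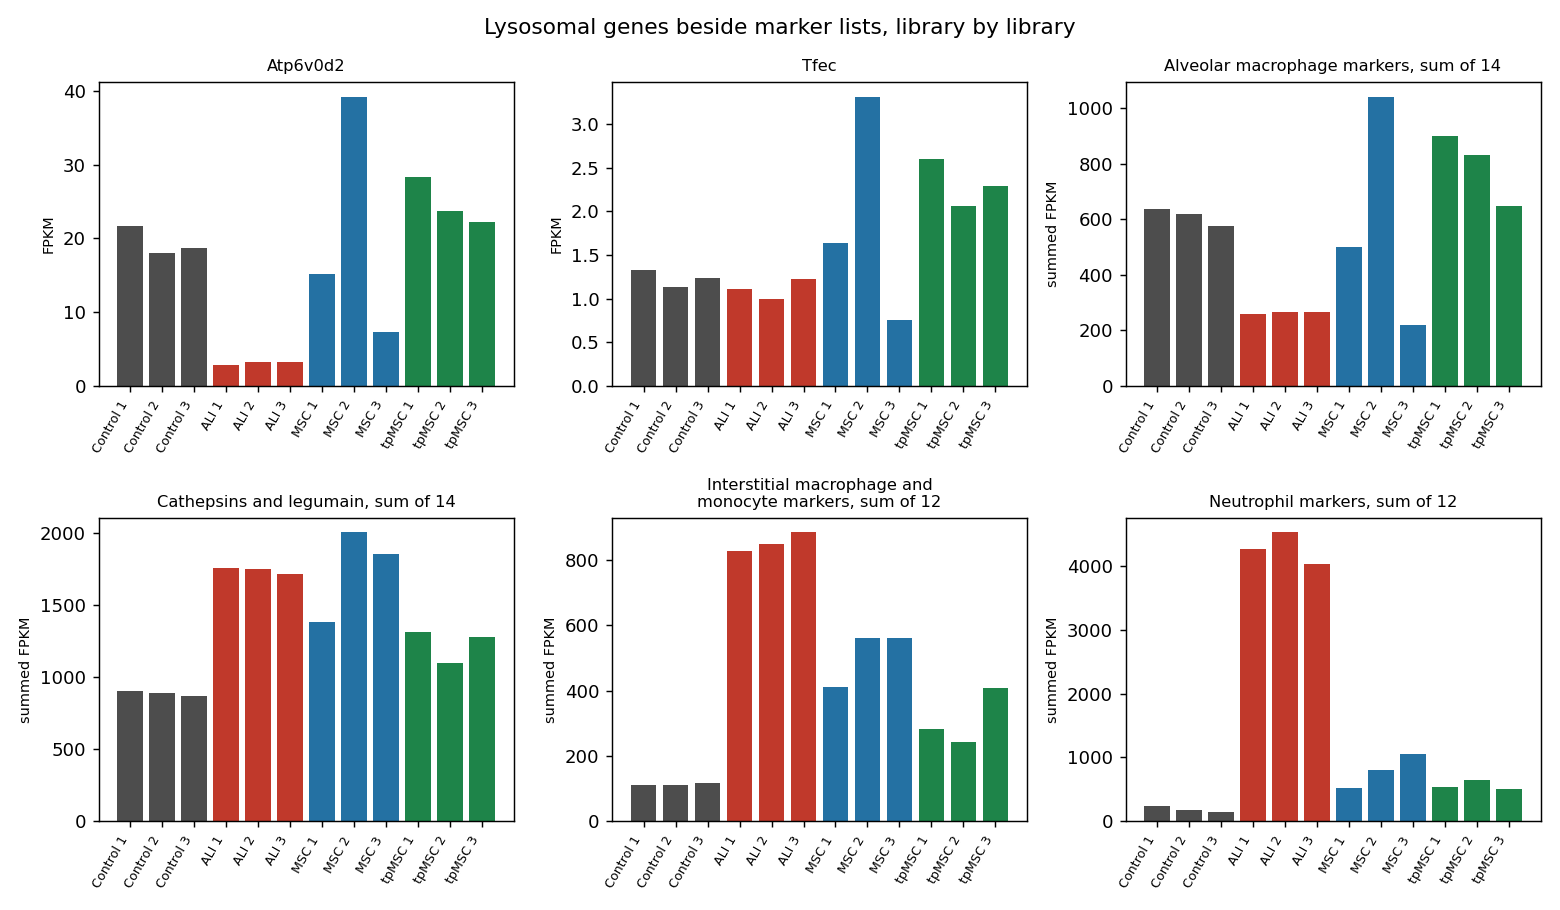
Atp6v0d2, Tfec and the summed 14 cathepsin and legumain genes beside the summed markers of alveolar macrophages, of interstitial macrophages and monocytes, and of neutrophils, with 1 bar per library and FPKM on a vertical axis that starts at 0. MSC replicate 2 is the highest and MSC replicate 3 the lowest MSC library for Atp6v0d2, Tfec and the alveolar macrophage markers, while the cathepsin sum in ALI libraries (1717 to 1759) lies far above that in Control libraries (869.2 to 903.3).

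Several pump genes were lower in treated than in ALI lungs. In tpMSC against ALI, 5 of the 17 fell (Atp6v0a1, Atp6v0c, Atp6v1a, Atp6v1c1 and Atp6v1d, by 0.26 to 0.48 on the log2 scale) and only Atp6v0d2 rose. Atp6v0c lost its call without tpMSC replicate 2 (edgeR adjusted p = 0.0563), Atp6v1d without ALI replicate 2 (0.0511), and Atp6v1c1 without any 1 tpMSC library or ALI replicate 2 or 3 (up to 0.0943). In MSC against ALI, Atp6v0c, Atp6v0d1 and Atp6v1d fell by 0.28 to 0.4 and only Atp6v0d2 rose. These 3 falls were thin: their edgeR adjusted p-values were 0.0491, 0.0343 and 0.0351, and they were lost in 16, 14 and 12 of the 18 alternative settings, with adjusted p up to 0.191, 0.13 and 0.136. Leaving out any 1 ALI library, MSC replicate 1 or MSC replicate 3 ended each of the 3 calls. In tpMSC against MSC no pump gene was called, Atp6v1a alone had an unadjusted p under 0.05, and the log2 fold changes ran from -0.21 to 0.29.

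Atp6v1a, the catalytic subunit, was among the 5. It stood at 22.7, 21.4 and 23.1 FPKM in Control, 30.3, 29.5 and 29.4 in ALI, 24.8, 27.7 and 27.9 in MSC and 22.9, 21.7 and 23.9 in tpMSC libraries. ALI libraries were the highest group without overlap, and tpMSC libraries overlapped the Control range. Against Control it rose by 0.27 ± 0.07 in MSC (edgeR adjusted p = 0.0186, and up to 0.0886 without Control replicate 1 or 2 or MSC replicate 2 or 3, where the call was lost) and was at 0.06 ± 0.07 in tpMSC. Across the 17 genes, 3 were called higher in MSC than in Control (Atp6v0a2, Atp6v0c and Atp6v1a) and 2 in tpMSC (Atp6v0c and Atp6v0d1), with none lower. The MSC call of Atp6v0a2 (0.3 ± 0.08) was lost without any 1 Control library or MSC replicate 2 or 3 (adjusted p up to 0.0965). The tpMSC calls of Atp6v0c and Atp6v0d1 were lost in 5 and 13 of the 18 settings, among them those without any 1 Control library or without tpMSC replicate 1 or 3 (adjusted p up to 0.0791 and 0.143).

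**Figure D3:**
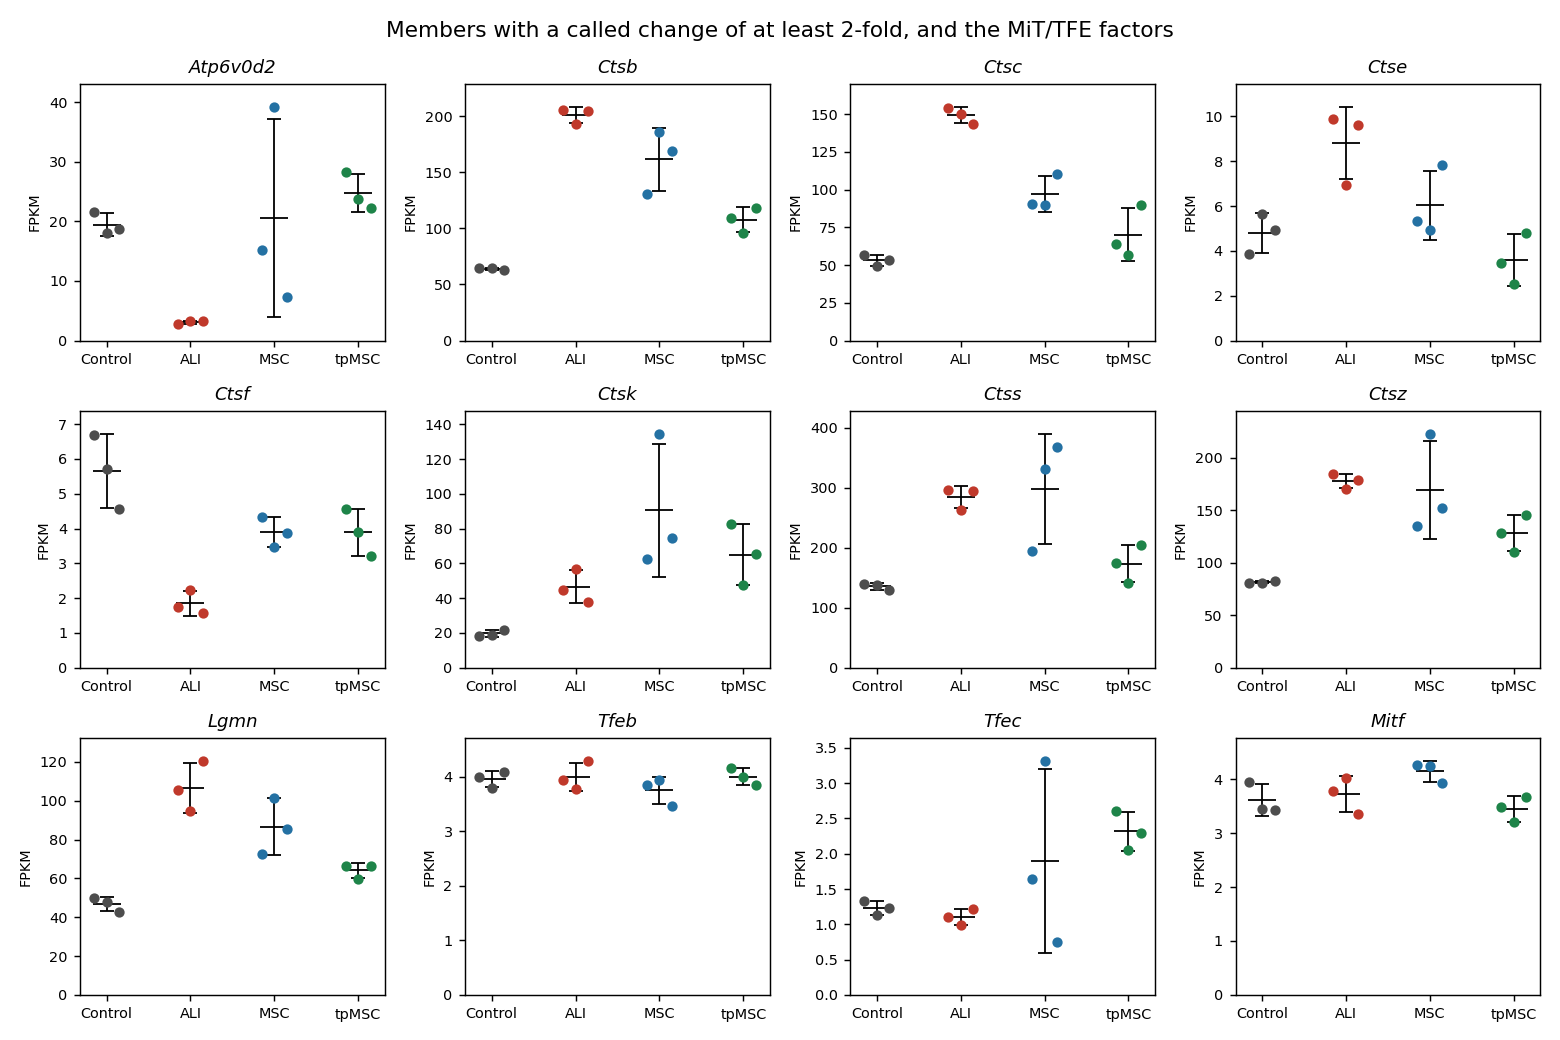
FPKM in every library (points) with the mean and SD of 3 libraries per group (bars) for the 9 genes called with a change of at least 2-fold in 1 or more comparisons, and for Tfeb, Tfec and Mitf; each vertical axis starts at 0. Ctsb and Ctsc are highest in ALI, Ctsk is highest in MSC, Ctsf and Atp6v0d2 are lowest in ALI, and Tfeb and Mitf lie at 3.2 to 4.28 FPKM throughout.

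Of the 14 cathepsin and legumain genes, Ctsb had the largest rise in ALI. Ctsb, one of the most abundant lysosomal proteases, stood at 64.4, 64.4 and 62.8 FPKM in Control libraries. It was at 206, 193 and 204 FPKM in ALI, 130, 185 and 169 in MSC and 109, 95.9 and 118 in tpMSC libraries. ALI libraries were highest, then MSC, then tpMSC, then Control libraries, with no overlap between the 4 groups. The ALI rise was 1.72 ± 0.12 on the log2 scale (edgeR adjusted p = 2.25e-06) and the fall in tpMSC against ALI was -0.93 ± 0.12 (edgeR adjusted p = 0.000341). MSC against ALI gave -0.37 ± 0.12, which did not pass (edgeR adjusted p = 0.0755) but was called without MSC replicate 2 and with DESeq2. Exons of Ctsb overlap those of Fdft1 on the other strand over 774 bases, and Fdft1 held 37248 counts against 685658 for Ctsb.

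Ctsc encodes dipeptidyl peptidase I, which activates the serine proteases of neutrophil and lymphocyte granules. Its level was 56.8, 49.1 and 53.5 FPKM in Control and 154, 150 and 143 in ALI libraries. It was 90.5, 90.1 and 111 FPKM in MSC and 64.2, 56.6 and 89.8 in tpMSC libraries. ALI stood above all other groups, and only the tpMSC range reached into that of Control. The log2 fold changes were 1.55 ± 0.15 in ALI against Control (edgeR adjusted p = 1.7e-05), -0.67 ± 0.15 in MSC against ALI (0.0172, but up to 0.0725 and no longer called without ALI replicate 1 or MSC replicate 1) and -1.11 ± 0.15 in tpMSC against ALI (0.000466).

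Ctss, which trims the invariant chain of MHC class II molecules in antigen-presenting cells, stood at 139, 137 and 129 FPKM in Control and 296, 263 and 294 in ALI libraries. It was 194, 331 and 368 FPKM in MSC and 174, 142 and 204 in tpMSC libraries. The MSC libraries were spread around the ALI range, and the tpMSC libraries lay between Control and ALI. It rose by 1.13 ± 0.2 in ALI (edgeR adjusted p = 0.000888), was at 0.02 ± 0.2 in MSC against ALI, and fell by 0.74 ± 0.2 in tpMSC against ALI (edgeR adjusted p = 0.0201, but up to 0.0837 and no longer called without ALI replicate 1 or 3 or tpMSC replicate 1 or 2).

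Ctsz, a carboxypeptidase, went from 81, 81.1 and 82.3 FPKM in Control to 184, 171 and 178 in ALI libraries, and was 135, 223 and 152 in MSC and 129, 110 and 145 in tpMSC libraries. Its ALI rise was 1.19 ± 0.16 (edgeR adjusted p = 0.000133). In MSC against ALI it was at -0.12 ± 0.16 (edgeR adjusted p = 0.717), and at -0.36 without MSC replicate 2, where it was called (0.0466). The fall in tpMSC against ALI of -0.5 ± 0.16 had an edgeR adjusted p of 0.0402 and was lost in 11 of 18 settings, among them those without any 1 Control or ALI library or tpMSC replicate 1 or 2 (up to 0.156). Its rise in tpMSC against Control (0.69 ± 0.16, edgeR adjusted p = 0.0139) was lost without Control replicate 1 or 2 or tpMSC replicate 3 (up to 0.0533). Lgmn encodes legumain, an asparagine-specific protease that activates other cathepsins. It stood at 50.1, 47.6 and 43 FPKM in Control, 105, 94.6 and 120 in ALI, 72.4, 102 and 85.7 in MSC and 66.5, 59.6 and 66.5 in tpMSC libraries. It rose by 1.25 ± 0.13 in ALI (edgeR adjusted p = 1.92e-05) and fell by 0.76 ± 0.13 in tpMSC against ALI (edgeR adjusted p = 0.00138). In MSC against ALI it was at -0.35 ± 0.12, which did not pass (edgeR adjusted p = 0.101). That value was -0.48 without MSC replicate 2, where it was called (0.0228), as it was with DESeq2. Its rise in tpMSC against Control (0.49 ± 0.12, edgeR adjusted p = 0.0223) was lost without Control replicate 2 or 3 or tpMSC replicate 1 or 3 (up to 0.0829).

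Ctsk behaved differently from these. It encodes the collagen-degrading protease of osteoclasts. Its level was 18.4, 18.9 and 21.9 FPKM in Control and 44.9, 56.6 and 37.9 in ALI libraries. The MSC libraries, at 62.8, 134 and 74.4 FPKM, all lay above the ALI libraries. The tpMSC libraries stood at 82.6, 47.6 and 65.1 FPKM, overlapping the ALI range. It rose by 1.3 ± 0.27 in ALI against Control (edgeR adjusted p = 0.00262). Against Control it was higher by 2.21 ± 0.28 in MSC (edgeR adjusted p = 0.000565) and by 1.76 ± 0.28 in tpMSC (edgeR adjusted p = 0.00238), the largest rise of the 41 genes in each of these comparisons. Against ALI it was at 0.91 ± 0.27 in MSC, which missed the threshold (edgeR adjusted p = 0.0534). That value was 0.51 without MSC replicate 2 and 1.13 without MSC replicate 1, where it was called (0.0364), as it was without tpMSC replicate 2 and with DESeq2. In tpMSC against ALI it was at 0.46 ± 0.27 (edgeR adjusted p = 0.252).

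Fibroblast markers were read beside Ctsk. Of the 10, 3 rose and 4 fell in ALI, 3 rose and none fell in MSC against ALI, and 4 rose and none fell in tpMSC against ALI. They summed to 2304 to 2449 FPKM in Control, 864.7 to 1198 in ALI, 1452 to 1823 in MSC and 1845 to 2205 in tpMSC libraries, and none was at 0. Col1a1, a collagen chain on that list, stood at 24.2, 23.8 and 25.8 FPKM in Control, 29, 29.3 and 40 in ALI, 39.1, 71.6 and 30.4 in MSC and 62, 43.8 and 57 in tpMSC libraries. Replicate 2 was the highest MSC library and the lowest tpMSC library for both Col1a1 and Ctsk. Col1a2 and Col3a1 shared this, but the list as a whole did not. Inmt was lowest in MSC replicate 2 (509.9 FPKM) and highest in tpMSC replicate 2 (1039 FPKM). The list sum was highest in MSC replicate 1 (1823 FPKM) and lowest in tpMSC replicate 3 (1845 FPKM). What part fibroblasts had in the values of Ctsk was not tested.

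Ctsf was the cathepsin that fell. It encodes a cysteine protease that can process the invariant chain in macrophages. It stood at 6.69, 5.7 and 4.57 FPKM in Control, 1.75, 2.24 and 1.56 in ALI, 4.33, 3.47 and 3.88 in MSC and 4.57, 3.89 and 3.22 in tpMSC libraries. Every treated library lay above every ALI library. The log2 fold changes were -1.55 ± 0.18 in ALI against Control (edgeR adjusted p = 4.47e-05), 1.02 ± 0.18 in MSC against ALI (0.00458) and 1.04 ± 0.18 in tpMSC against ALI (0.00162), and all 3 calls were kept in each of the 18 settings. Against Control it was at -0.53 ± 0.17 in MSC and -0.5 ± 0.17 in tpMSC (edgeR adjusted p = 0.0549 and 0.0699). These became calls in 5 and 3 of the 18 settings: both without Control replicate 3, with DESeq2 and with a replicate block. The MSC value was also called without ALI replicate 2 or tpMSC replicate 3.

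Of the aspartic proteases, Ctsd and Ctse rose in ALI, while Napsa (napsin A, outside the 41 and also an alveolar type 2 cell marker) fell by 0.29 ± 0.09 (edgeR adjusted p = 0.0202). Ctsd, the gene with the highest level of the 41, went from 332.2 ± 8.32 FPKM (SD, n = 3) in Control to 561.4 ± 24.1 in ALI, and was 627.8 ± 102 in MSC and 439.4 ± 45.5 in tpMSC. It rose by 0.82 ± 0.11 in ALI (edgeR adjusted p = 0.000177), and its fall in tpMSC against ALI (-0.38 ± 0.11, edgeR adjusted p = 0.0323) was lost in 11 of 18 settings, among them those without any 1 Control or ALI library or tpMSC replicate 2 or 3 (up to 0.11). Its rise in tpMSC against Control (0.44 ± 0.11, edgeR adjusted p = 0.0241) was lost without any 1 Control library or tpMSC replicate 1 (up to 0.0851). Ctse, an endosomal relative also made in stomach epithelium and red cell precursors, was low, at 3.87, 5.65 and 4.93 FPKM in Control and 9.87, 6.95 and 9.6 in ALI libraries. It was 5.34, 4.94 and 7.81 FPKM in MSC and 3.44, 2.52 and 4.8 in tpMSC libraries. It rose by 0.93 ± 0.25 in ALI (edgeR adjusted p = 0.0109, and 0.05 without Control replicate 1, where the call was lost) and fell by 1.32 ± 0.25 in tpMSC against ALI (edgeR adjusted p = 0.00318).

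Beside Ctse, 3 of the 6 tested gastric and airway epithelial markers rose and 1 fell in ALI. That list summed to 4.1 to 18.1 FPKM in Control, 25.8 to 79.7 in ALI, 10.8 to 86.8 in MSC and 13.8 to 95.9 in tpMSC libraries, with Gkn2 at 0 in 11 of 12 libraries and Krt5 in 9. All 6 erythroid markers fell in ALI, from sums of 7704 to 15140 FPKM to 2665 to 3177; MSC and tpMSC libraries stood at 3516 to 4915 and 2866 to 5296. The part of these cells in the values of Ctse was not tested.

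Of the remaining proteases, Ctsh and Ctsa rose in ALI. Ctsh, an aminopeptidase that also takes part in surfactant protein processing, rose by 0.98 ± 0.13 in ALI (54.67 ± 0.794 to 103.2 ± 18.6 FPKM, edgeR adjusted p = 9.58e-05), and its fall in tpMSC against ALI (-0.4 ± 0.12, edgeR adjusted p = 0.0375) was lost in 11 settings, among them those without any 1 Control or tpMSC library or ALI replicate 1 or 2 (up to 0.152). Beside it, 3 of the 10 alveolar type 2 cell markers rose and 5 fell in ALI; their sums were 13650 to 14710 FPKM in Control, 6589 to 9782 in ALI, 9718 to 11240 in MSC and 9553 to 11980 in tpMSC libraries. The part of these cells in the values of Ctsh was not tested. Ctsa, the protective protein of β-galactosidase and neuraminidase, rose by 0.32 ± 0.11 in ALI (edgeR adjusted p = 0.0322) and by 0.36 ± 0.11 in MSC against Control (0.0382). The first call was lost without any 1 Control library or ALI replicate 1 or 3, the other without any 1 Control library, ALI replicate 1 or MSC replicate 2 (each up to 0.138). Its exons overlap those of Pltp on the other strand over 495 bases, and Pltp held 230945 counts against 166274. Ctsl, Ctso and Ctsw were not called in ALI, at log2 fold changes of 0.39, -0.24 and -0.28. The first 2 were near the threshold (edgeR adjusted p = 0.0632 and 0.0588). Ctsl became a call in ALI with DESeq2, with only the 6 libraries compared and without MSC replicate 1. Ctso was called lower with a replicate block, with limma on FPKM and without ALI replicate 2. Ctsl was called in MSC against Control (0.61 ± 0.15, edgeR adjusted p = 0.0173), but not without Control replicate 1 or 2 or MSC replicate 2 or 3 (up to 0.0696).

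Ctsw is a protease of cytotoxic lymphocytes. It stood at 4.03 to 4.82 FPKM in Control, 3.06 to 3.91 in ALI, 4.24 to 4.52 in MSC and 2.87 to 4.11 in tpMSC libraries and was called in none of the 6 comparisons. Beside it, 7 of the 12 NK and T cell markers fell in ALI and none rose, from sums of 71 to 110 FPKM in Control to 31 to 57.6 in ALI libraries. MSC and tpMSC libraries stood at 58.2 to 88.4 and 52.6 to 90.2, and no marker of this list was at 0. The part of these cells in the values of Ctsw was not tested.

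Over the whole class, the summed cathepsin and legumain level was 903.3, 890.2 and 869.2 FPKM in Control and 1759, 1749 and 1717 in ALI libraries. It was 1387, 2007 and 1858 in MSC and 1312, 1102 and 1279 in tpMSC libraries. The treated groups did not overlap each other, and every treated library lay above every Control library. In MSC against ALI 1 of the 14 rose (Ctsf) and 1 fell (Ctsc), with a median log2 fold change of 0.03. In tpMSC against ALI 1 rose (Ctsf) and 8 fell (Ctsb, Ctsc, Ctsd, Ctse, Ctsh, Ctss, Ctsz and Lgmn), with a median of -0.39.

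Markers of myeloid cells were read in the same libraries. Of the 12 interstitial macrophage and monocyte markers, 11 rose and none fell in ALI, 2 fell in MSC against ALI and 10 fell in tpMSC against ALI. They summed to 110.4 to 118 FPKM in Control, 828.6 to 885.1 in ALI, 411.1 to 562.9 in MSC and 243.4 to 407.3 in tpMSC libraries. Cd14 alone was at 406.3 to 448.8 FPKM in ALI and 90.02 to 150.3 in MSC libraries, and the other 11 markers summed to 401.2 to 449.1 in ALI and 321.1 to 457.2 in MSC libraries, which overlapped. All 12 neutrophil markers rose in ALI and all 12 fell in each treated group against ALI, with sums of 148.3 to 243.2, 4034 to 4524, 520.4 to 1047 and 505.9 to 646.7 FPKM in the same order. No marker of either list was at 0 in any library. S100a9 made up much of the neutrophil sum, at 2394 to 2692 FPKM in ALI and 286 to 656 in MSC libraries. The cathepsin sums of MSC and ALI libraries overlapped. Of the 8 lipid-associated macrophage markers (Fabp5 is also on the alveolar list), 4 rose and 1 fell in ALI, 1 rose in MSC against ALI and 6 fell in tpMSC against ALI; their sums were 651.8 to 696.9, 745.6 to 834, 703.2 to 956.6 and 459.2 to 585.3 FPKM. The part of these populations in the cathepsin results was not tested.

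Of the 5 hydrolases, Hexa and Gusb rose in ALI. Hexa, the α subunit of β-hexosaminidase, rose by 0.36 ± 0.11 in ALI (41.09 ± 2.13 to 50.71 ± 0.813 FPKM, edgeR adjusted p = 0.017, and 0.0732 without Control replicate 3, where the call was lost). Gusb, β-glucuronidase, rose by 0.61 ± 0.16 (12.09 ± 0.121 to 17.65 ± 1.32 FPKM, edgeR adjusted p = 0.00931). Both were also higher in MSC than in Control, by 0.53 ± 0.11 and 0.72 ± 0.16 (edgeR adjusted p = 0.0056 and 0.0089), and neither was called in tpMSC against Control (0.31 ± 0.11 and 0.49 ± 0.16, edgeR adjusted p = 0.0703 and 0.0558). These last became calls in 4 and 6 of the 18 settings: both with DESeq2, with only the 6 libraries compared, and without MSC replicate 1 or 2, and Gusb also without MSC replicate 3 or tpMSC replicate 2.

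Glb1 (β-galactosidase), Gaa (acid α-glucosidase) and Lipa (lysosomal acid lipase) were called in no comparison. Their log2 fold changes in ALI were -0.02 ± 0.11, -0.16 ± 0.09 and -0.19 ± 0.1, and the Lipa libraries of ALI (12.5 to 13.3 FPKM) all lay below those of Control (14 to 16.1). Gaa was called lower in ALI without Control replicate 3 (edgeR adjusted p = 0.0319). Exons of Glb1 overlap those of Tmppe on the same strand over 165 bases, and Tmppe held 5450 counts against 18077 for Glb1. Of the lysosome membrane proteins, Lamp2 rose in ALI by 0.34 ± 0.08 (41.24 ± 2.02 to 49.92 ± 4.34 FPKM, edgeR adjusted p = 0.0047). Lamp1 stood at 275.6 ± 0.623 FPKM in Control and 273.5 ± 10.5 in ALI (log2 fold change 0.05 ± 0.09, edgeR adjusted p = 0.694); part of its exons overlap Grtp1 on the other strand.

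**Figure D4:**
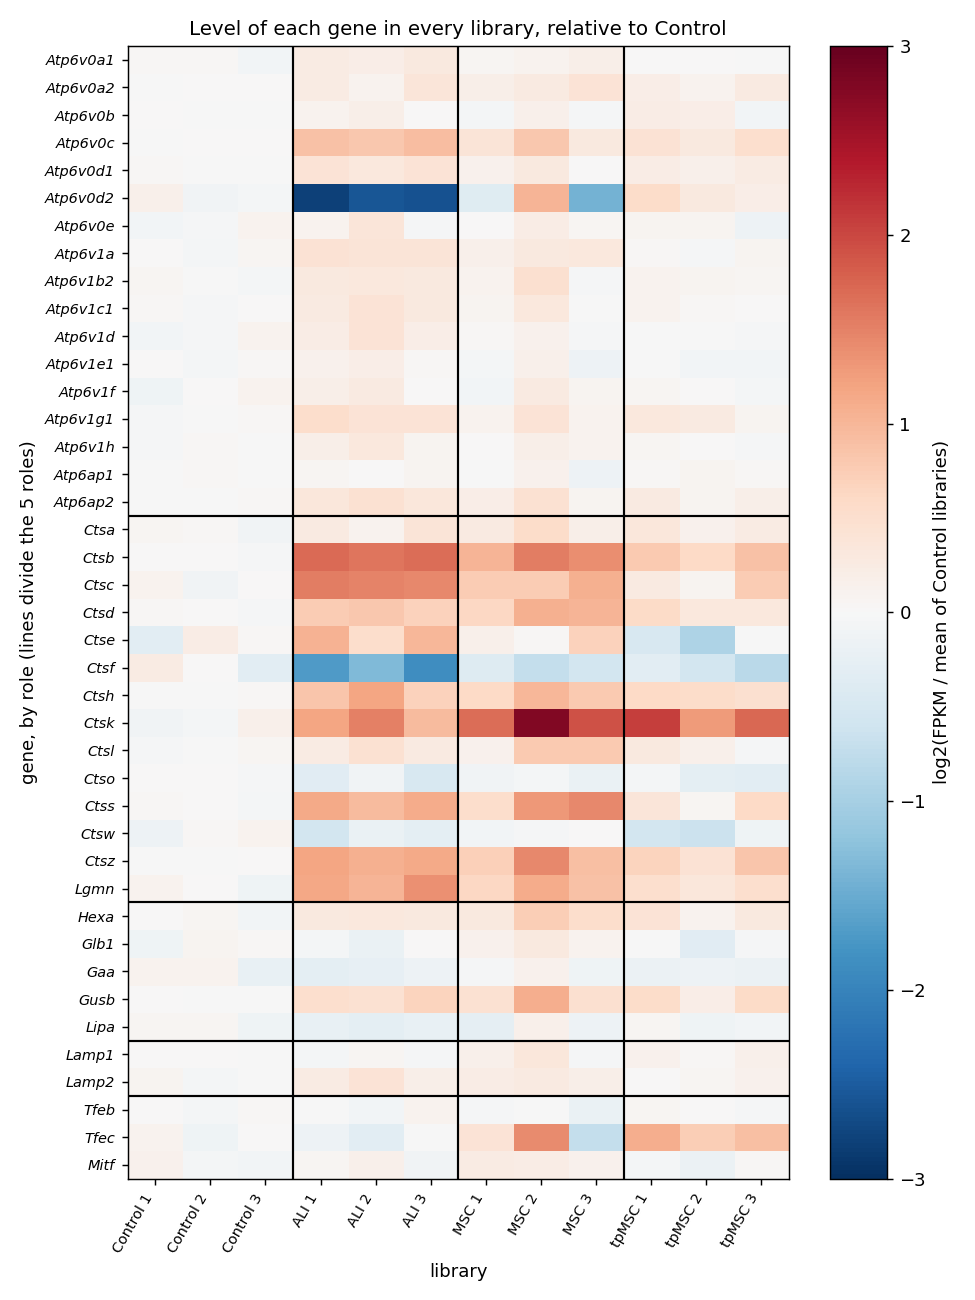
Level of each of the 41 genes (rows, grouped by role) in each of the 12 libraries (columns) as log2 of its FPKM over the mean of the 3 Control libraries; red is above Control, blue below. The red block of ALI and MSC lies in the cathepsin rows, most hydrolase, LAMP and pump rows are paler apart from Atp6v0c and Gusb, and Atp6v0d2, Ctsf and Tfec depart from their neighbours.

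The MiT/TFE factors were low and were called in no comparison. Tfeb stood at 4, 3.8 and 4.09 FPKM in Control, 3.94, 3.77 and 4.28 in ALI, 3.85, 3.93 and 3.46 in MSC and 4.15, 4 and 3.84 in tpMSC libraries, and all 4 groups overlapped. Its log2 fold change in ALI was 0.08 ± 0.08 (edgeR adjusted p = 0.477). Mitf was at 3.95, 3.45 and 3.44 FPKM in Control, 3.79, 4.03 and 3.36 in ALI, 4.27, 4.24 and 3.93 in MSC and 3.49, 3.2 and 3.68 in tpMSC libraries. Its log2 fold change in ALI was 0.1 ± 0.09 (edgeR adjusted p = 0.412).

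Tfec, the family member restricted mainly to macrophages and related myeloid cells, varied most. It was at 1.33, 1.13 and 1.23 FPKM in Control and 1.11, 0.99 and 1.22 in ALI libraries, which overlapped. The tpMSC libraries, at 2.6, 2.06 and 2.29 FPKM, all lay above these, and the MSC libraries were at 1.64, 3.31 and 0.75. In tpMSC against ALI the log2 fold change was 1.03 ± 0.37 with an edgeR adjusted p of 0.0667, which became a call in 4 of the 18 settings: without MSC replicate 2 or 3, with DESeq2 and with only the 6 libraries compared. In MSC against ALI it was 0.72 ± 0.37 (edgeR adjusted p = 0.261), 0.05 without MSC replicate 2 and 1.11 without MSC replicate 3, where it was called (0.0167). Replicate 2 was the highest and replicate 3 the lowest MSC library for Tfec, for Atp6v0d2 and for the alveolar macrophage marker sum. This order was not particular to them. It also held, over a narrower range, for Lamp1 (305, 350 and 269 FPKM in replicates 1, 2 and 3) and Atp6v0c (31.8, 42.7 and 29.7 FPKM). The pump sum had it too, at 558.3, 680.5 and 543.8 FPKM. The part of alveolar macrophages in the values of Tfec was not tested.

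Other genes of the same machinery were followed as 5 further lists. Beside the counts of each list stand the shares of all genes tested: 20.2% rose and 19.6% fell in ALI. In MSC against ALI 5.03% rose and 5.21% fell, and in tpMSC against ALI 11.6% rose and 11.5% fell. Of 14 tested pump subunits and assembly factors outside the 41, 3 rose and 2 fell in ALI. Dmxl2, which takes part in assembling the pump, rose by 1.53 ± 0.15 (3.167 ± 0.206 to 8.763 ± 0.474 FPKM) and fell by 1.09 ± 0.15 in MSC and by 1.33 ± 0.15 in tpMSC against ALI. Tcirg1, the a3 subunit of osteoclasts and macrophages, rose by 0.79 ± 0.1 in ALI. Atp6v1c2 and Atp6v0e2, isoforms of the C and e subunits, fell by 1.11 ± 0.14 and 0.84 ± 0.1, and against ALI they rose by 0.65 ± 0.14 and 0.35 ± 0.1 in MSC and by 0.76 ± 0.14 and 0.55 ± 0.1 in tpMSC. Adjusted p-values of these changes ran from 1.42e-05 to 0.0481 in the edgeR test. Atp6ap1l was at 0 in all 12 libraries and Atp6v1e2 in 11.

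Of 8 tested proteases and cystatins, 3 rose and 3 fell in ALI, against 20.2% and 19.6% of all genes tested. Among the cystatins, which inhibit cysteine cathepsins, Cst3 (cystatin C) fell by 0.88 ± 0.09, from 500.1 ± 32.9 to 259.8 ± 20.5 FPKM, while Cstb (stefin B) rose by 1.8 ± 0.21, from 50.68 ± 5.36 to 168.8 ± 11.7 FPKM. Cst7 (cystatin F) rose by 2.37 ± 0.49 from 0.6933 FPKM, and the protease Cpq fell by 0.55 ± 0.1. In treated lungs against ALI, Cst3 rose by 0.47 ± 0.09 with MSC and 0.63 ± 0.09 with tpMSC, and Cpq rose by 0.38 ± 0.1 with MSC. Cstb fell by 0.7 ± 0.2 with MSC and by 1.01 ± 0.2 with tpMSC. Adjusted p-values of these changes ran from 1.47e-05 to 0.0477 in the edgeR test. Counts were 2 higher and 1 lower in MSC, and 1 higher and 3 lower in tpMSC against ALI.

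Of 31 further hydrolases and their cofactors, 11 rose and 8 fell in ALI, against 20.2% and 19.6% of all genes tested. Acp5, the tartrate-resistant phosphatase of osteoclasts and macrophages, rose by 2.69 ± 0.25 (10.38 ± 1.83 to 64.08 ± 4.81 FPKM), Gla (α-galactosidase) by 1.52 ± 0.13 and Acp2 by 0.95 ± 0.1. With tpMSC 6 rose and 8 fell against ALI, with Gla at -1.21 ± 0.13 and Acp5 at -1.96 ± 0.25. In MSC against ALI 1 rose and 4 fell, with Gla at -0.73 ± 0.12 and Acp2 at -0.45 ± 0.1. Adjusted p-values of these changes ran from 5.76e-06 to 0.0175 in the edgeR test. Acp5 was lower with MSC as well, at 22.37, 46.53 and 33.17 FPKM against 59.04 to 68.62 FPKM in ALI libraries. Acp2 was also lower with tpMSC, at 13.01, 11.69 and 14.06 FPKM against 21.28 to 22.87 FPKM in ALI libraries.

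Of 23 membrane, sorting and channel genes, 12 rose and 4 fell in ALI, against 20.2% and 19.6% of all genes tested. Slc11a1, the phagosomal metal transporter NRAMP1, rose by 4.07 ± 0.25 (2.173 ± 0.104 to 35.24 ± 3.1 FPKM) and Cd63 by 1.39 ± 0.12, and the sorting receptor Sort1 fell by 0.86 ± 0.07. With tpMSC 3 rose and 7 fell against ALI, with Slc11a1 at -2.44 ± 0.23 and Sort1 at 0.68 ± 0.07. In MSC against ALI 1 rose and 4 fell, with Sort1 at 0.61 ± 0.07. Adjusted p-values of these changes ran from 1.16e-06 to 0.000633 in the edgeR test. Slc11a1 was lower with MSC as well, at 10.32, 17.56 and 11.99 FPKM against 32.15 to 38.35 FPKM in ALI libraries.

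The last list holds 15 genes, drawn up as regulators of TFEB together with the related factor Tfe3. Of these, 5 rose and none fell in ALI, against 20.2% and 19.6% of all genes tested. Tfe3, itself a MiT/TFE factor, was among the 5. Fnip2, a partner of folliculin, rose by 1.61 ± 0.12 (3.61 ± 0.27 to 10.6 ± 1.2 FPKM), Rragc by 0.46 ± 0.07 and Lamtor1 by 0.37 ± 0.09. Tfe3, the fourth MiT/TFE factor, rose by 0.83 ± 0.09, from 4.653 ± 0.2 to 7.91 ± 0.785 FPKM, unlike the 3 factors among the 41 genes. Against ALI, Tfe3 fell by 0.52 ± 0.09 with MSC and 0.59 ± 0.09 with tpMSC, and Fnip2 by 0.79 ± 0.12 and 1.29 ± 0.12. Adjusted p-values of these changes ran from 3.63e-06 to 0.00446 in the edgeR test. In all, none rose and 2 fell in MSC, and 1 rose and 4 fell in tpMSC against ALI.

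Both genes with CACGTG in a promoter window and genes without it moved in ALI. Of the 12 genes with it, 5 rose (Atp6v0d1, Atp6v1a, Ctsa, Ctsd and Lgmn), 1 fell and 6 were not called in ALI. Their median log2 fold change was 0.27. Of the 19 genes whose windows lacked it, 11 rose, none fell and 8 were not called, with a median of 0.34. Lamp1, whose 4 copies are printed above, was not called, and Ctsf, with 1 copy, fell. Of the 10 genes with no window in the table, among them Ctsb, Ctsh, Ctse and Atp6v0d2, 8 rose and 1 fell. Of all genes tested, 39.8% were called in ALI, 20.2% higher and 19.6% lower. The part of CACGTG sites in these changes was not tested.

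Positions of the genes given library by library are those of GENCODE M21 (GRCm38), matched by gene ID. Atp6v0d2 (ENSMUSG00000028238) lies at chr4:19876841-19922605 on the minus strand and Ctsf (ENSMUSG00000083282) at chr19:4855130-4860918 on the plus strand. Ctsk (ENSMUSG00000028111, chr3:95499256-95509362) and Ctss (ENSMUSG00000038642, chr3:95526786-95556403) are neighbours on the plus strand of the same chromosome. Ctsb (ENSMUSG00000021939) lies at chr14:63122462-63145923, Ctsc (ENSMUSG00000030560) at chr7:88278085-88310888 and Ctse (ENSMUSG00000004552) at chr1:131638306-131675505, all on the plus strand. On the minus strand lie Ctsz (ENSMUSG00000016256) at chr2:174427493-174439039, Lgmn (ENSMUSG00000021190) at chr12:102394084-102439813 and Tfec (ENSMUSG00000029553) at chr6:16833373-16898441. Tfeb (ENSMUSG00000023990) lies at chr17:47737030-47792419 and Mitf (ENSMUSG00000035158) at chr6:97807052-98021349, both on the plus strand.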

How the data were processed

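Per the file headers, the authors' table gives each gene a raw count and an FPKM in every library. Tools listed in the submitters' processing notes, with no role stated, are HISAT2 2.0.4 and StringTie 1.3.4d, also cutadapt 1.9, edgeR and DESeq2; the build is GRCm38. How reads were counted, with which strand setting and annotation, is not given in the sources used here; reads of genes that overlap on opposite strands may not be separated. Sample titles gave the groups and the replicate numbers.

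The quasi-likelihood test of edgeR 4.0.16 (R 4.3.3) was run on the deposited counts of all 12 libraries with a mean for each group, after filterByExpr and with TMM scaling. A gene was called at a Benjamini-Hochberg adjusted p under 0.05 over 22915 genes. SE is the log2 fold change over the root of its F statistic. Levels are deposited FPKM, mean ± SD over 3 libraries. The fit was tested on simulated data. Depth is high, so spread between libraries, not counting error, limits precision. Fold changes of 6 comparisons were recomputed with RLE factors, DESeq2 1.42.0, limma 3.58.1 on log2(FPKM + 1), no filter, a replicate block, only 6 libraries, and each library left out.

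The 41 genes and all lists were chosen with earlier results of these data known. Genes given by library were called with a change of at least 2-fold in 1 or more comparisons, plus Tfeb, Tfec and Mitf. From each further list, up to 4 genes with the smallest p in ALI against Control and up to 2 in each treated group against ALI were named. Other genes named by value (Atp6v0c, Atp6v0d1, Atp6v1a and others of the 41, with Napsa, Cd14, Chil3, S100a9, Inmt and Col1a1) were chosen after their values were seen. Lists were described by counts and medians, not tested. Deposited positions equalled those of GRCm38 for 1 of the 41 genes, so positions are from GENCODE M21. Some genes of the further lists are not reported here. Gkn1 was not analysed here, nor was the protein identity of d subunits and cathepsins.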

Additional observations from a re-analysis of the deposited data

How the results depend on the processing

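Over 18 alternative settings, none of the 70 called values changed sign. The count of called genes in ALI against Control was 26 and ran from 23 to 27 with single libraries left out. For MSC against ALI it was 6, but 3 without the filter, 3 with only the 6 libraries compared, 12 with DESeq2, 3 with limma on FPKM, and 2 to 14 with single libraries left out. For tpMSC against ALI it was 15 (9 without tpMSC replicate 2 to 21 without MSC replicate 2), for tpMSC against MSC 0 (3 with DESeq2, 0 to 4 with single libraries left out), for MSC against Control 15 (11 to 17), and for tpMSC against Control 8 (16 with only the 6 libraries, 15 with DESeq2, 3 to 14 with single libraries left out). The cause was not tested. Same-numbered libraries did not move together (18 pairs, r -0.108 to 0.104), and with the replicate block the counts were 26, 4, 13, 0, 15 and 8 in the order ALI against Control, MSC against ALI, tpMSC against ALI, tpMSC against MSC, MSC against Control and tpMSC against Control.

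Values that changed sign were uncalled in the reported fit and wherever the sign changed. Among the ranges below, Ctsz at -0.36 (without MSC replicate 2, edgeR adjusted p = 0.0466) was called. So was Tfec in MSC against Control at 1.02 (without MSC replicate 3, 0.0179). With the replicate block Ctss in MSC against ALI was 0 and Atp6v0d2 in MSC against Control -0.09; with limma on FPKM the latter was -0.22, Ctsf in tpMSC against MSC -0.01 and Tfeb in tpMSC against ALI 0. With single libraries left out, the ranges were -0.16 to 0.26 for Ctss and -0.36 to 0.04 for Ctsz in MSC against ALI, -0.05 to 0.03 for Tfeb in tpMSC against ALI, -0.11 to 1.18 for Atp6v0d2, -0.1 to 0.14 for Ctsf and -0.07 to 0.98 for Tfec in tpMSC against MSC, -0.8 to 0.49 for Atp6v0d2 and -0.04 to 1.02 for Tfec in MSC against Control, and -0.08 to 0.04 for Mitf in tpMSC against Control. A further 38 of the 103 values never called changed sign. With 3 libraries per group, a difference of treated groups that misses the threshold may still exist.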
